A study of Sus scrofa with 16 samples.

Results

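The translation initiation and elongation factors described here are the genes whose pig symbol begins with EIF or EEF followed by a digit, without EIF1AX, EIF1AY and the EIF2AK kinases. Of 51 such symbols with an Ensembl identifier, 47 were listed among the counted genes. Of these, 39 had at least 10 reads in at least 5 of the 16 libraries, the minimum for being kept. These 39 genes were taken from 25880 counted genes, of which 7275 reached the same minimum. They comprised 3 genes of the EIF1 group, 3 of EIF2, 4 of EIF2B, 9 of EIF3, 13 of EIF4, 2 of EIF5 and EIF6 and 5 of EEF. The rule used only symbols and read numbers over all pigs, although the group of genes was picked with earlier results of these data known and the minimum of 5 libraries equals the size of the smaller diet groups. The 8 genes with too few reads were EEF1A2, EEF1AKMT3, EIF2D, EIF3G, EIF3I, EIF4E1B, EIF4E3 and EIF5A2. EEF1AKMT1, EEF1AKMT2, EEF1AKMT4 and EIF4EBP3 were not listed among the counted genes. EEF1A1, EEF1G, EEF2KMT, EIF2B1, EIF2S3, EIF3K, EIF5 and EIF5A could not be paired with an Ensembl identifier and were not analysed here.

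Liver RNA came from crossbred fatteners, offspring of (Polish Landrace x Polish Large White) sows and (Duroc x Pietrain) boars, that were housed individually on straw and fattened from 60 to 118 kg on diets of like energy and protein that differed in the added fat. Group R received rapeseed oil (5 pigs, 3 gilts and 2 barrows), group B beef tallow (5 pigs, 2 gilts and 3 barrows) and group C coconut oil (6 pigs, 3 gilts and 3 barrows). There was no group without added fat, and age was not given in the labels. Each pig gave 1 library of mRNA 3′ ends, with 705669 to 1767671 reads on genes (median 1018321.5).

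Protein synthesis begins when the small ribosomal subunit, held open by EIF1, EIF1A and the many-subunit scaffold EIF3, receives the initiator tRNA from the GTP-binding complex EIF2. EIF2B recharges EIF2 with GTP, and phosphorylation of EIF2 in stressed cells blocks that step. The EIF4 factors bind the cap of the mRNA and unwind its leader, EIF5 and EIF5B drive release of EIF2 and joining of the large subunit, and the EEF factors then bring in each aminoacyl-tRNA and move the ribosome along. The liver makes most plasma proteins and so carries a high load of translation.

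Levels are given as counts per 1000000 reads on genes (CPM) after TMM normalization. In this assay a transcript gives reads only near its 3′ end, so CPM does not grow with transcript length. Levels of different genes can be set side by side as tag counts, although priming efficiency and reads lost to similar copies may still differ between genes. Reads outside annotated genes, 15.9% to 30.1% of those tallied per pig, were counted on no gene, and their loss may differ between genes too. EEF1B2, the exchange subunit that reloads EEF1A with GTP, had the highest mean (1297 CPM over 16 pigs), followed by EIF2S2, the beta subunit of EIF2 (1047 CPM), and EEF2, the translocase (866 CPM). EIF3A (397 CPM), the largest EIF3 subunit, and EIF5B (365 CPM), the GTPase of subunit joining, came next. At the low end stood EEF1E1 (9.22 CPM), EIF2B2 (7.99 CPM) and the EIF4E transporter EIF4ENIF1 (7.88 CPM), where a library held about 10 reads or fewer for the median pig. The 3 highest overlapped with one another in single pigs (1022 to 1960, 600 to 1460 and 656 to 1090 CPM), and all of their values were above the highest of EIF3A (532 CPM).

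**Figure D1:**
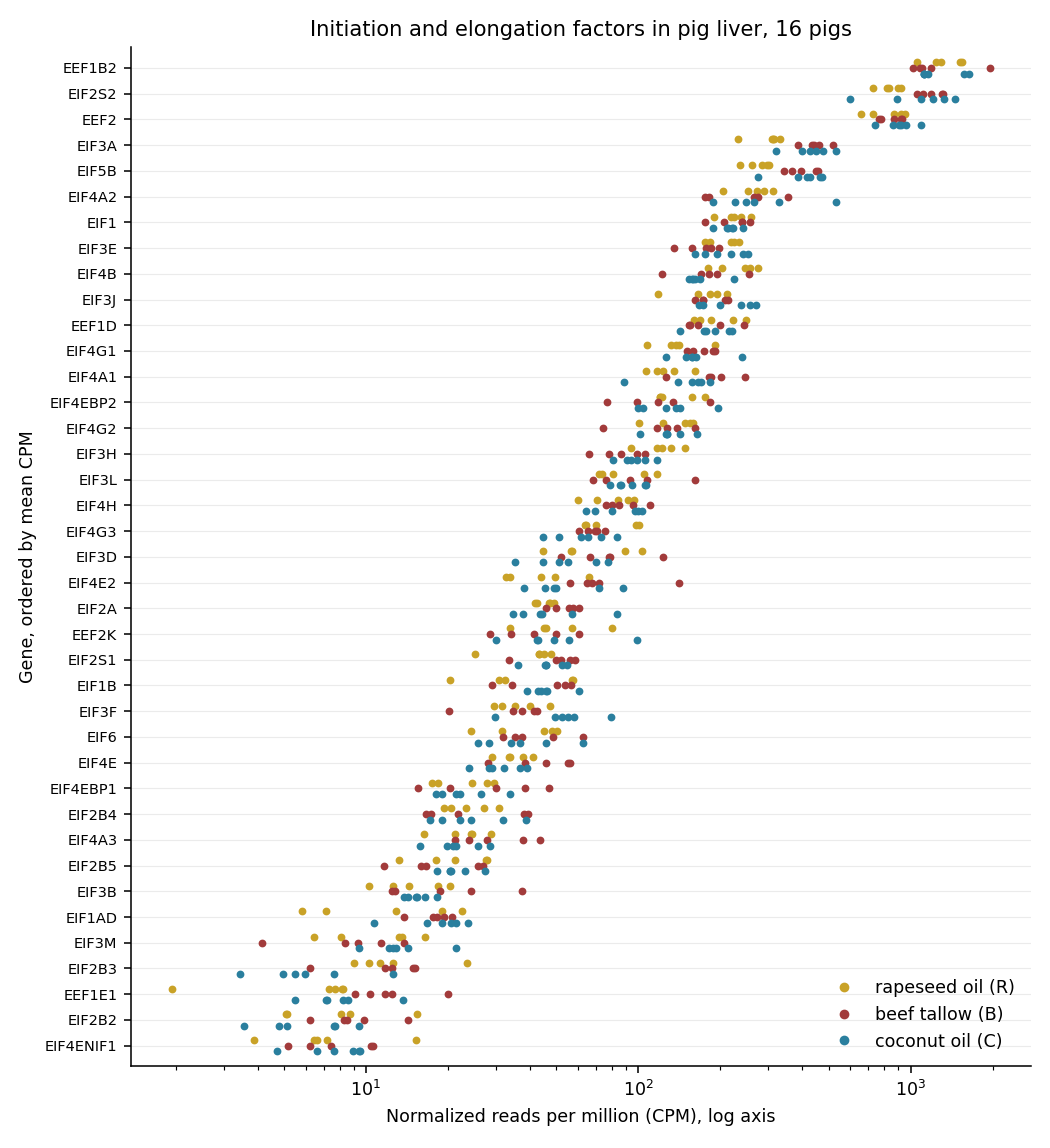
Normalized counts (CPM, log axis) of the 39 kept translation factors, 1 point per pig, coloured by diet and ordered by the mean over 16 pigs. Levels run from 1297 CPM on average for EEF1B2 to 7.88 for EIF4ENIF1. Every pig of group B is above every pig of group R for EIF3A, EIF5B, EIF2S2 and EEF1E1. Of these, EEF1E1 reached the minimum for being kept only through group B.

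Subunits of one complex did not have equal tag counts. EIF2S2 exceeded its partner EIF2S1, the alpha subunit that carries the phosphorylation site, by 15.2 to 32.5 times in group R, 21.2 to 39.1 times in group B and 13.1 to 32.0 times in group C. Within the kept EIF3 genes, means over the 16 pigs ran from 397 CPM for EIF3A to 11.7 CPM for EIF3M. The EIF3 genes that were not kept were lower, with at most 3 reads in any pig for EIF3G and 14 for EIF3I. Among paralogues, EIF4A2 (273 CPM) stood above EIF4A1 (156 CPM), both being RNA helicases of the cap-binding complex. Of the scaffold proteins, EIF4G1 was at 160 CPM, EIF4G2 at 131 CPM and EIF4G3 at 69.8 CPM. EIF4EBP2 (132 CPM) exceeded EIF4EBP1 (25.6 CPM), and both encode inhibitors that hold EIF4E away from EIF4G. EEF1A2 had at most 2 reads in any pig, and EIF5A2 did not reach 10 reads in any.

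Differences between diets were estimated as log2 fold changes with edgeR's quasi-likelihood test and Benjamini-Hochberg adjustment over all genes tested, the diet named first being the numerator. No translation factor passed an edgeR adjusted p of 0.05 in any pair of diets. Both comparisons with group R share the same 5 pigs of that group, so they are not independent of each other.

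In group B against group R, 36 factors were tested and 0 passed the edgeR adjusted p, beside 1.11% of the 6318 genes tested. At an unadjusted p under 0.05, 5 factors (13.9%) were higher in group B, beside 8.33% of all genes, and 1 (2.78%) was lower, beside 6.66%. Values of single pigs did not overlap between the diets for 3 factors (8.33%), all higher in group B, beside 2.28% of all genes, and for 0 lower, beside 2.18%. The median log2 fold change was 0.16 over the factors and 0.01 over all genes. Of the factors, 22 (61.1%) were higher and 14 (38.9%) lower, beside 51.5% and 48.5% of all genes. Leaving out 1 pig took the median over the factors to 0.04 without pig 3 of group B and to 0.24 without pig 2 of group R, and the other pigs left it between these values. DESeq2, the tool of the study, called 3 of the 35 factors for which it gave an adjusted p, EIF2S2, EIF3A and EIF5B, beside 3.24% of 5808 genes. The study lists these 3 genes from the same samples and the same tool, so the DESeq2 calls are not independent evidence.

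In group C against group R, 36 factors were tested and 0 passed the edgeR adjusted p, beside 0.138% of 6528 genes. At an unadjusted p under 0.05, 4 factors (11.11%) were higher in group C, beside 6.45% of all genes, and 2 (5.56%) were lower, beside 6.53%. The diets overlapped for every factor tested, while 0.582% of all genes were higher and 0.934% lower without overlap. The median log2 fold change was 0.06 over the factors and -0.0011 over all genes. Of the factors, 23 (63.9%) were higher and 13 (36.1%) lower, beside 49.9% and 50.1% of all genes. DESeq2 called 2 of 28 factors, EIF5B and EIF3A, beside 2.61% of 3565 genes.

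In group C against group B, 38 factors were tested and 0 passed the edgeR adjusted p, beside 0.0587% of 6812 genes. At an unadjusted p under 0.05, 1 factor (2.63%) was higher in group C, beside 5.24% of all genes, and 4 (10.5%) were lower, beside 6.21%. No factor was free of overlap, with shares of 0.602% and 0.837% of all genes in the higher and lower direction. The median log2 fold change was -0.05 over the factors and -0.0045 over all genes. Of the factors, 16 (42.1%) were higher and 22 (57.9%) lower, beside 49.6% and 50.4% of all genes. DESeq2 called 0 of the 21 factors for which it gave an adjusted p, beside 2.46% of 2156 genes. EIF3F, EIF4E, EIF3D and EIF2B3 had an unadjusted DESeq2 p under 0.05, and of these only EIF3D was given an adjusted p (0.259). The share of all genes at that unadjusted level is not given for DESeq2.

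**Figure D2:**
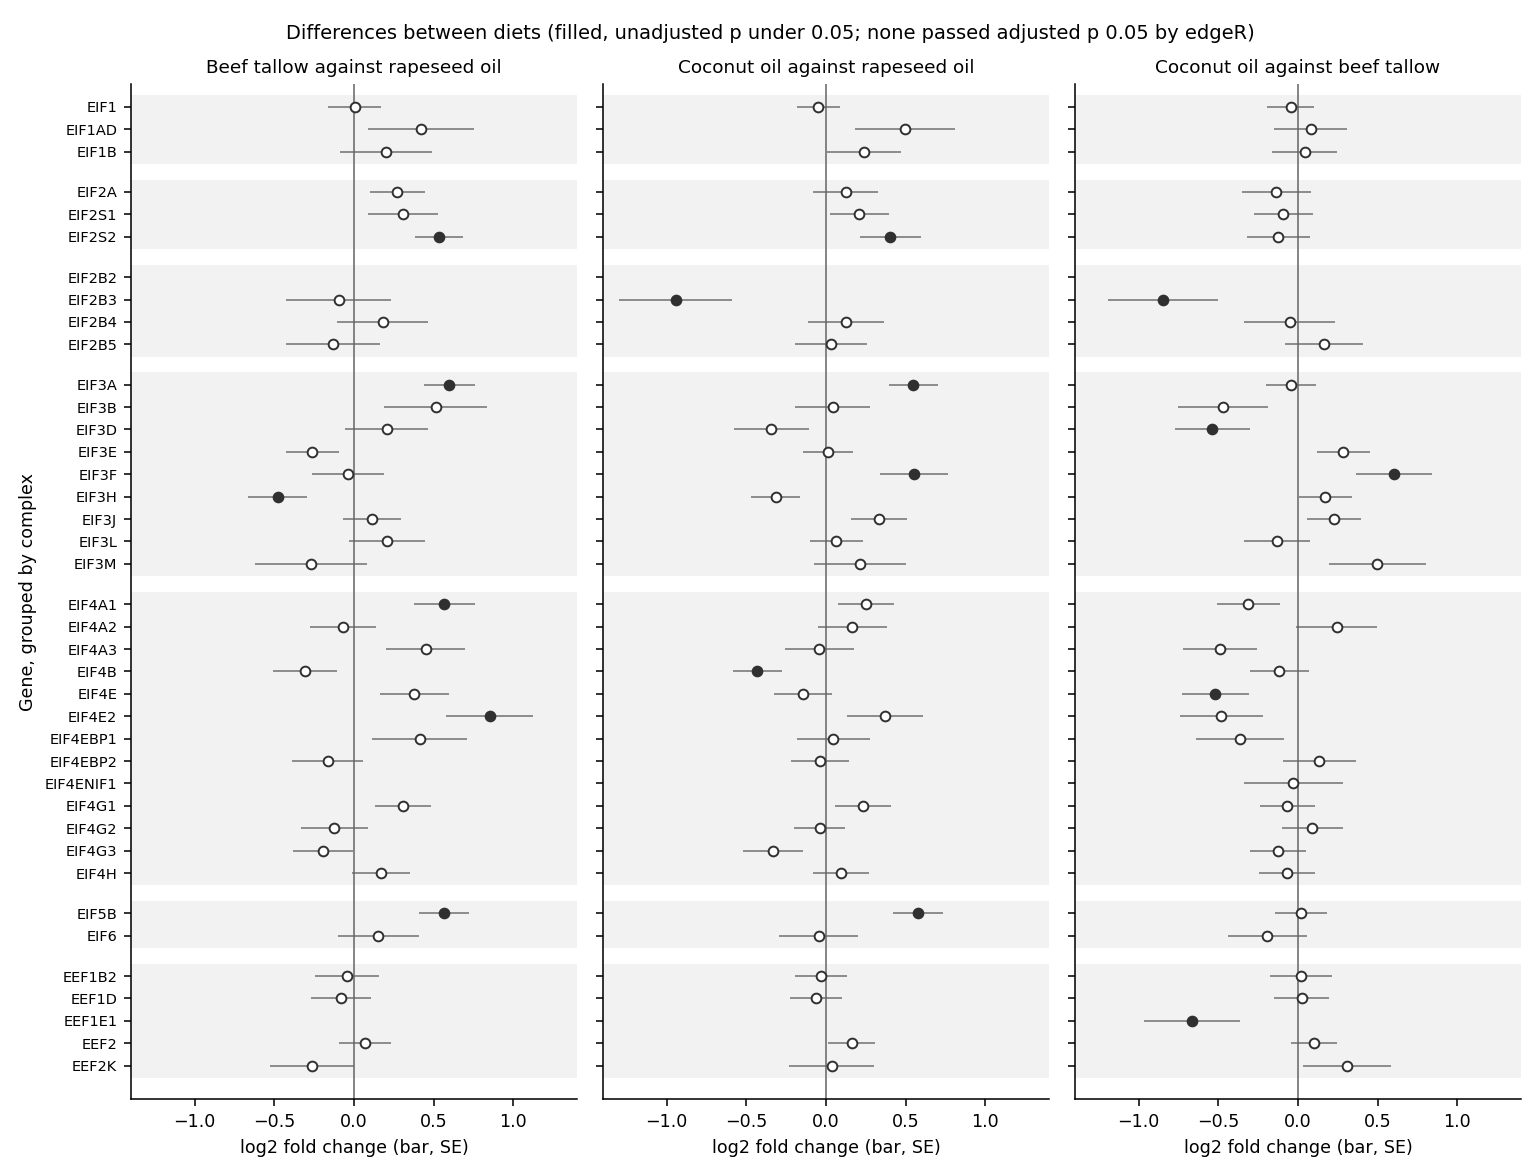
Log2 fold changes with their standard errors for the translation factors in the 3 pairs of diets, grouped by complex, with filled points for an unadjusted p under 0.05. EIF3A, EIF5B and EIF2S2 are filled in both comparisons with group R, and none of the points passed an edgeR adjusted p of 0.05.

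Among the EIF1 genes no factor had an unadjusted p under 0.05. EIF1, the start codon gatekeeper, was the steadiest of the 39 factors between pigs, with an SD within diets of 0.17 on the log2 scale. Its level was 226 ± 25.4 CPM (SD, n = 5) in group R, 224 ± 32.6 (SD, n = 5) in group B and 216 ± 17.8 (SD, n = 6) in group C. The log2 fold change of EIF1 was 0.00 (SE 0.16) in group B and -0.05 (SE 0.13) in group C against group R. EIF1AD, a gene named for its EIF1A-like domain, was higher by 0.42 (SE 0.33) in group B and 0.50 (SE 0.32) in group C against group R on the log2 scale, at edgeR adjusted p = 0.589 and 0.538.

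Of the EIF2 genes, EIF2S2 (chromosome 17, 37551182 to 37570269 in Sscrofa11.1, as for all positions given) had the largest log2 fold changes against group R. In group R its level was 832, 902, 919, 726 and 819 CPM in single pigs, and in group B it was 1110, 1190, 1314, 1058 and 1302 CPM. The lowest pig of group B exceeded the highest of group R. Group C reached from 600 to 1460 CPM with a median of 1151, so it spanned the other diets, and its pigs 2 (891 CPM) and 3 (600 CPM) were not above group R. The log2 fold change of EIF2S2 was 0.53 (SE 0.15, edgeR adjusted p = 0.101) in group B and 0.40 (SE 0.19, edgeR adjusted p = 0.382) in group C against group R. DESeq2 gave an adjusted p of 0.00414 for EIF2S2 in group B and 0.291 in group C.

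The other EIF2 genes pointed the same way with smaller values. EIF2S1 was higher by 0.31 (SE 0.22) in group B and by 0.21 (SE 0.18) in group C on the log2 scale. EIF2A, a separate factor reported to deliver initiator tRNA, was higher by 0.27 (SE 0.17) and 0.12 (SE 0.21). The summed level of the EIF2 genes was 821 to 1013 CPM in group R and 1157 to 1422 CPM in group B, without overlap, and 730 to 1540 CPM in group C. Since EIF2S2 supplied most of that sum, it repeats the result of EIF2S2.

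The EIF2B genes, subunits of the exchange factor, were low, and EIF2B2 was tested in no pair of diets. EIF2B3 (chromosome 6, 166353918 to 166487581), the gamma subunit, was at 10.3, 11.3, 9.01, 23.4 and 12.6 CPM in group R and at 15.1, 6.23, 14.9, 12.5 and 11.7 CPM in group B. In group C its lowest, median and highest levels were 3.43, 5.73 and 12.6 CPM. In 5 of the 6 pigs of group C the level was below that of every pig of group R, and pig 5 of group C was the exception. The log2 fold change of EIF2B3 was -0.94 (SE 0.36, edgeR adjusted p = 0.272) in group C against group R and -0.85 (SE 0.35, edgeR adjusted p = 0.376) in group C against group B. A median of 11 reads per library stood behind these values. EIF2B4 and EIF2B5 had log2 fold changes between -0.13 and 0.18 in the 3 pairs.

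The EIF3 subunits had log2 fold changes in both directions. EIF3A (chromosome 14, 128967645 to 129007168), the scaffold subunit, was at 332, 313, 233, 310 and 315 CPM in group R. In group B it was at 385, 442, 518, 435 and 459 CPM, and in group C its lowest, median and highest levels were 322, 438 and 532 CPM. All pigs of group B and 5 of the 6 pigs of group C were above all pigs of group R, and pig 3 of group C was inside the range of group R. EIF3A was higher by 0.60 (SE 0.16, edgeR adjusted p = 0.0837) in group B and by 0.55 (SE 0.15, edgeR adjusted p = 0.141) in group C on the log2 scale. DESeq2 gave adjusted p = 0.00759 in group B and 0.0166 in group C for EIF3A. Between groups C and B, EIF3A differed by -0.04 on the log2 scale, with a 95% interval from -0.35 to 0.26.

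EIF3H (chromosome 4, 21955026 to 22053683), a subunit with an MPN domain, had lower counts in group B. It was at 132, 149, 122, 93.7 and 117 CPM in group R and at 106, 86.1, 65.9, 98.7 and 77.8 CPM in group B. The diets overlapped only through pig 4 of group R, which was below pigs 1 and 4 of group B. EIF3H had a log2 fold change of -0.48 (SE 0.18, edgeR adjusted p = 0.224) in group B and -0.31 (SE 0.15, edgeR adjusted p = 0.3995) in group C against group R. The ratio of EIF3A to EIF3H in the same pig, chosen after these values were seen and therefore given without a test, was 1.91 to 3.30 in group R, 3.64 to 7.85 in group B and 2.74 to 5.03 in group C. Group B did not overlap with group R in this ratio, and group C overlapped with both.

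EIF3F (chromosome 9, 1291660 to 1297987), the other MPN subunit, had higher counts in group C. Its level was 35.2, 40.1, 29.6, 31.6 and 47.5 CPM in group R and 34.8, 41.5, 37.5, 42.6 and 20.3 CPM in group B. In group C the lowest, median and highest levels were 29.8, 53.7 and 79.2 CPM. Pig 4 of group C gave the lowest value, and the other 5 pigs were above every pig of the other diets. EIF3F was higher by 0.55 (SE 0.21, edgeR adjusted p = 0.276) in group C against group R and by 0.60 (SE 0.24, edgeR adjusted p = 0.358) in group C against group B on the log2 scale. In group B against group R it differed by -0.04 (SE 0.23).

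EIF3D, the subunit with a cap-binding activity of its own, was at 70.1 ± 24.6 CPM (SD, n = 5) in group R, 79.6 ± 26.4 (SD, n = 5) in group B and 55.6 ± 15.7 (SD, n = 6) in group C. Its log2 fold change in group C against group B was -0.54 (SE 0.24, edgeR adjusted p = 0.412), and the ranges overlapped, at 52.2 to 123 CPM in group B and 35.2 to 77.1 CPM in group C. Without pig 3 of group B this log2 fold change of EIF3D was -0.32. The remaining 5 subunits, EIF3B, EIF3E, EIF3J, EIF3L and EIF3M, had log2 fold changes between -0.47 and 0.51 over the 3 pairs, and none had an unadjusted p under 0.05. The summed level of the EIF3 genes overlapped between all diets (891 to 1164 CPM in group R, 1047 to 1249 in group B, 1112 to 1323 in group C).

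**Figure D3:**
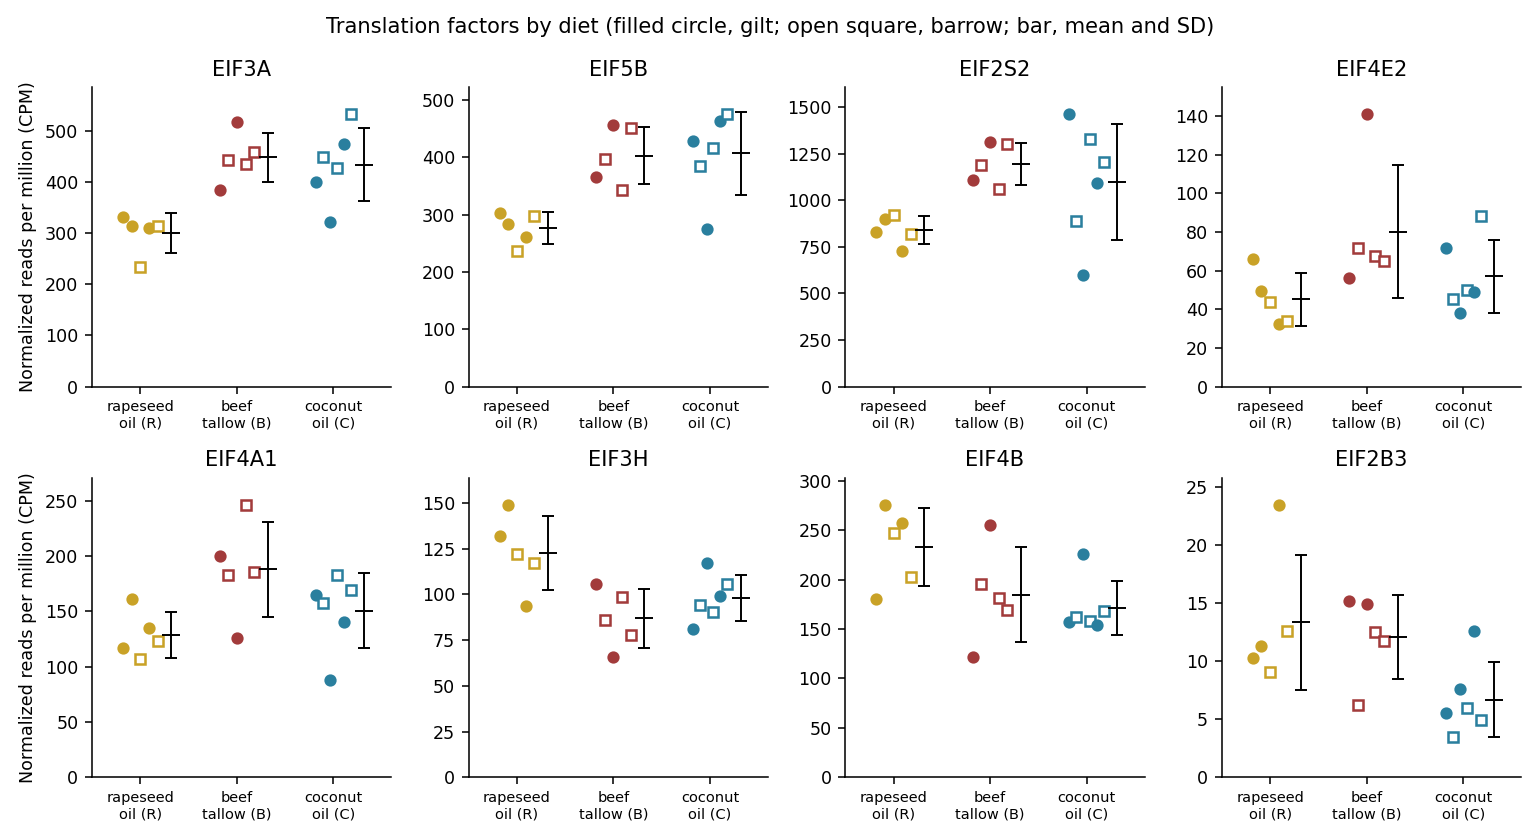
Normalized counts (CPM, axes from 0) of 8 translation factors in single pigs by diet, with filled circles for gilts, open squares for barrows and bars for the mean and SD. For EIF3A, EIF5B and EIF2S2 the 5 pigs of group B lie above the 5 of group R, and pig 3 of group C has the lowest value of its diet (322, 276 and 600 CPM).

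Among the EIF4 genes, EIF4E2, a cap-binding homologue of EIF4E linked to repression of translation, had the largest log2 fold change of all factors tested in group B against group R (0.85, SE 0.27, edgeR adjusted p = 0.141). Its level was 66.1, 49.3, 43.8, 32.6 and 33.9 CPM in group R and 56, 71.6, 141, 67.5 and 65.0 CPM in group B. Pig 3 of group B was far above the others, and pigs 1 and 5 of group B were below pig 1 of group R. Without pig 3 of group B the log2 fold change of EIF4E2 was 0.53. In group C the lowest, median and highest levels were 38.1, 49.6 and 88.1 CPM, higher than in group R by 0.37 (SE 0.24, edgeR adjusted p = 0.546). That value of EIF4E2 was 0.19 without pig 6 of group C and 0.56 without pig 1 of group R.

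EIF4A1 (chromosome 12, 52868479 to 52874248) was at 117, 161, 107, 135 and 123 CPM in group R and at 201, 183, 126, 246 and 185 CPM in group B. Pig 3 of group B was inside the range of group R, and its other 4 pigs were above it. EIF4A1 was higher in group B by 0.57 (SE 0.19, edgeR adjusted p = 0.160) on the log2 scale. Without pig 3 of group B, a fit in which 149 of 6436 genes passed (70 of 6318 with all pigs), this became 0.69 with an edgeR adjusted p of 0.0384. EIF4A1 was the only factor that passed in this pair when a single pig was left out. Its paralogue EIF4A2 was at 267 ± 40.3 CPM (SD, n = 5) in group R, 250 ± 73.7 (SD, n = 5) in group B and 298 ± 123 (SD, n = 6) in group C, and it differed by -0.07 (SE 0.21) on the log2 scale between groups B and R. The ratio of EIF4A1 to EIF4A2 was 0.343 to 0.636 in group R, 0.568 to 1.01 in group B and 0.167 to 0.879 in group C, and the diets overlapped.

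**Figure D4:**
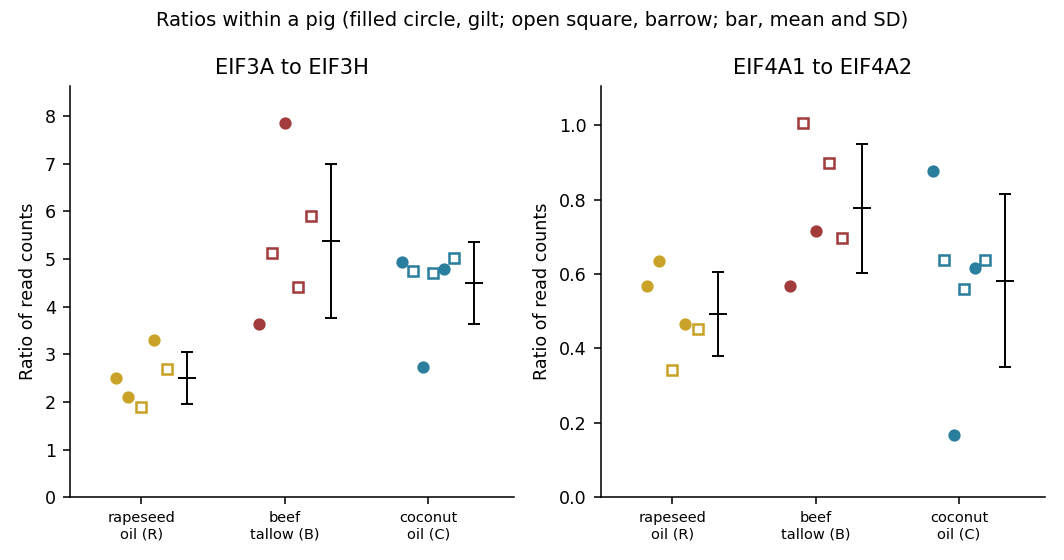
Ratios of read counts within each pig, EIF3A to EIF3H on the left and EIF4A1 to EIF4A2 on the right, by diet, with filled circles for gilts, open squares for barrows and bars for the mean and SD. The ratio of EIF3A to EIF3H is 1.91 to 3.30 in group R and 3.64 to 7.85 in group B, while the ratio of EIF4A1 to EIF4A2 overlaps between all diets.

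EIF4B (chromosome 5, 18266471 to 18298745), which stimulates the EIF4A helicases, had lower counts in group C. Its level was 181, 275, 247, 258 and 202 CPM in group R and 122, 195, 255, 182 and 169 CPM in group B, while group C ran from 154 to 226 CPM with a median of 160. In group C 5 of the 6 pigs were below every pig of group R, and pig 3 was not. EIF4B had a log2 fold change of -0.43 (SE 0.15, edgeR adjusted p = 0.248) in group C and -0.31 (SE 0.20, edgeR adjusted p = 0.495) in group B against group R, the latter being -0.18 without pig 1 of group B.

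EIF4E, the cap-binding protein itself, was at 35.0 ± 4.57 CPM (SD, n = 5) in group R, 44.7 ± 11.9 (SD, n = 5) in group B and 31.6 ± 5.65 (SD, n = 6) in group C. Its log2 fold change was -0.52 (SE 0.21, edgeR adjusted p = 0.376) in group C against group B, with ranges of 24.0 to 39.1 and 28.0 to 56.2 CPM that overlapped. EIF4G1, the main scaffold of the cap complex, was higher by 0.31 (SE 0.18) in group B and 0.23 (SE 0.18) in group C against group R, and EIF4G2 and EIF4G3 were at -0.12 (SE 0.21) and -0.19 (SE 0.19) in group B. The inhibitors EIF4EBP1 and EIF4EBP2 had log2 fold changes of 0.41 (SE 0.30) and -0.17 (SE 0.22) in group B against group R, and 0.05 (SE 0.23) and -0.04 (SE 0.18) in group C. None of these genes passed an unadjusted p of 0.05 against group R.

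EIF5B (chromosome 3, 54861759 to 54930826) was at 303, 284, 237, 261 and 297 CPM in group R. In group B it was at 366, 396, 456, 344 and 451 CPM, and in group C its lowest, median and highest levels were 276, 422 and 475 CPM. As with EIF3A, all pigs of group B and 5 of the 6 pigs of group C were above group R, and pig 3 of group C was inside its range. EIF5B was higher by 0.56 (SE 0.16, edgeR adjusted p = 0.0982) in group B and by 0.58 (SE 0.16, edgeR adjusted p = 0.123) in group C on the log2 scale, and DESeq2 gave adjusted p = 0.0111 and 0.0140. Without pig 3 of group C the log2 fold change in group C was 0.67 with an edgeR adjusted p of 0.0419. In that fit 27 of 6566 genes passed, where 9 of 6528 did with all pigs. Between groups C and B, EIF5B differed by 0.02 on the log2 scale, with a 95% interval from -0.30 to 0.34. EIF6, which keeps the large subunit from joining too early, was at 39.9 ± 11.4 CPM (SD, n = 5), 43.2 ± 12.7 (SD, n = 5) and 38.9 ± 13.5 (SD, n = 6) in groups R, B and C, with no unadjusted p under 0.05.

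The elongation factors with many reads had small log2 fold changes between diets. EEF2 was at 825 ± 129 CPM (SD, n = 5) in group R, 852 ± 79.3 (SD, n = 5) in group B and 913 ± 115 (SD, n = 6) in group C, with log2 fold changes of 0.07 (SE 0.16) and 0.16 (SE 0.15) against group R. EEF1B2 was at 1332 ± 207 CPM (SD, n = 5), 1273 ± 389 (SD, n = 5) and 1288 ± 246 (SD, n = 6), with log2 fold changes of -0.04 (SE 0.20) and -0.03 (SE 0.16). EEF1D, the other exchange subunit, was at -0.08 (SE 0.19) and -0.06 (SE 0.16). The ratio of EEF1B2 to EEF1D was 6.23 to 8.07 in group R, 5.99 to 8.003 in group B and 5.87 to 7.92 in group C. EEF1E1, a scaffold protein of the multi-synthetase complex, had too few reads for the comparisons with group R. Its level was 7.34, 8.22, 7.73, 8.14 and 1.94 CPM in group R, 9.08, 10.4, 20.03, 12.5 and 11.7 CPM in group B and 5.51 to 13.7 CPM with a median of 7.73 in group C. All pigs of group B were above those of group R, while group C overlapped with both. However, EEF1E1 had at least 10 reads in 9 of the 16 libraries and reached the minimum of 5 only through group B. Its higher level in group B was thus in part a condition of its being kept. EEF1E1 had a log2 fold change of -0.67 (SE 0.30, edgeR adjusted p = 0.423) in group C against group B, and of 0.97 (SE 0.37, edgeR adjusted p = 0.239) in group B against group R when the filter of 10 reads in 5 libraries was used for all genes. Without pig 3 of group B the difference of EEF1E1 between groups C and B was -0.42.

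Summed over the 39 factors, the level was 5778 to 6667 CPM in group R, 6626 to 7961 in group B and 6261 to 7409 in group C. Group B thus overlapped with group R by its lowest pig alone. The mean sum was 6370 CPM in group R and 6995 in group B. EIF2S2, EIF3A and EIF5B had means of 840, 301 and 276 CPM in group R and 1195, 448 and 403 in group B. The difference in the sum therefore largely repeats the results of these genes. The summed EEF genes, which made up the largest share, overlapped widely (1931 to 2813 CPM in group R, 2007 to 3187 in group B, 2104 to 2926 in group C).

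The sexes were compared over all 16 pigs, since they were unequal in groups R and B. Of 36 factors 0 passed the edgeR adjusted p, beside 0.0786% of 6365 genes, and DESeq2 called 0 as well. At an unadjusted p under 0.05, 1 factor (2.78%) was higher in barrows, beside 1.49% of all genes, and 4 (11.11%) were lower, beside 2.53%. The factor that was higher was EEF2K, the kinase that phosphorylates EEF2 and slows elongation. Gilts ranged from 28.4 to 45.8 CPM with a median of 38.3, and barrows from 41.5 to 98.9 CPM with a median of 56.5. Inside each diet the barrows did not overlap with the gilts: EEF2K was 57.1 and 79.8 CPM in barrows against 33.8 to 45.8 in gilts of group R, 41.5 to 60.7 against 28.4 and 34.1 in group B, and 49.01 to 98.9 against 29.9 to 42.7 in group C. Of all genes tested, 0.0943% were higher in barrows in this way and 0.0314% lower. EEF2K was higher in barrows by 0.70 (SE 0.18, edgeR adjusted p = 0.569) on the log2 scale, and by 0.74 with diet as a covariate (edgeR adjusted p = 0.206).

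**Figure D5:**
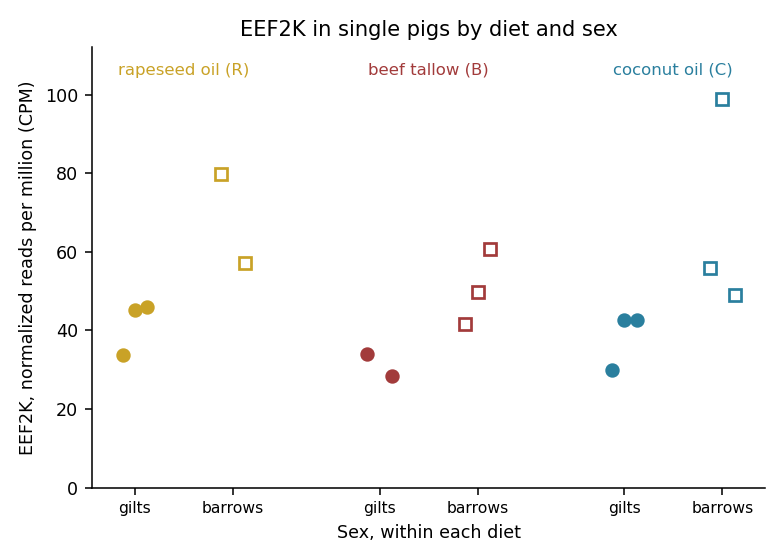
Normalized counts (CPM, axis from 0) of EEF2K in single pigs, by diet and by sex, with filled circles for gilts and open squares for barrows. In each diet the lowest barrow (57.1, 41.5 and 49.01 CPM in groups R, B and C) lies above the highest gilt (45.8, 34.1 and 42.7 CPM).

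The 4 factors lower in barrows were EIF3D, EIF3L, EIF3B and EIF2B3. EIF3D was at 44.8 to 123 CPM (median 77.9) in gilts and 35.2 to 77.9 CPM (median 54.4) in barrows, a log2 fold change of -0.55 (SE 0.20, edgeR adjusted p = 0.998). EIF3L had a log2 fold change of -0.35 (SE 0.16), EIF3B of -0.48 (SE 0.22) and EIF2B3 of -0.63 (SE 0.30). Without pig 3 of group B those of EIF3L and EIF3B were -0.23 and -0.27. The sexes overlapped for all 4.

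Other genes of translation were read from lists, each given by its counts. Of the genes that control initiation, 17 of 27 were tested in group B against group R, where 1 passed higher and 0 passed lower (1.11% of all genes passed), 4 were higher and 0 lower at an unadjusted p under 0.05 (8.33% and 6.66% of all genes), and the median log2 fold change was 0.24. The one that passed was SESN2, a sestrin induced by amino acid shortage through ATF4, at 15.4, 24.7, 27.0, 12.2 and 25.2 CPM in group R and 50.7, 52.9, 64.6, 88.3 and 26.6 CPM in group B. Pig 5 of group B was below pig 3 of group R, and SESN2 was higher by 1.47 (SE 0.30, edgeR adjusted p = 0.0305) on the log2 scale. TRIB3, another gene of that response, was higher by 1.69 (SE 0.41, edgeR adjusted p = 0.0599), and DESeq2 called both genes in this pair. Of the aminoacyl-tRNA synthetases and their partners, 15 of 22 were tested, 1 passed higher and 0 passed lower, 4 were higher and 0 lower at an unadjusted p under 0.05, beside the same shares of all genes, and the median was 0.08. NARS1, which charges tRNA with asparagine, was at 147, 116, 122, 131 and 169 CPM in group R and 243, 204, 222, 200 and 226 CPM in group B without overlap, higher by 0.69 (SE 0.16, edgeR adjusted p = 0.0495), and DESeq2 called it too. Leaving out 1 pig at a time took the edgeR adjusted p of SESN2 to 0.0187 to 0.0882 and that of NARS1 to 0.0338 to 0.147, so that SESN2 did not pass in 8 and NARS1 in 9 of the 10 fits. NARS1 also did not pass with RLE normalization (edgeR adjusted p = 0.0529), without a filter on low counts (0.0767), with the filter of 10 reads in 5 libraries (0.0555) and with sex as a covariate (0.0578).

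In the same pair 12 of 16 genes of mRNA binding, termination and recycling were tested, with a median of 0.09, as were 6 of 9 mitochondrial translation factors, with a median of -0.06, and 42 of 46 ribosomal protein genes, with a median of -0.11, and none passed by edgeR or DESeq2. None of the ribosomal and mitochondrial genes had an unadjusted p under 0.05 in group B against group R. In the list of mRNA binding, termination and recycling, 3 genes, ABCE1 (0.95, SE 0.28), ETF1 (0.57, SE 0.18) and GSPT1 (0.63, SE 0.22), were higher at that level and 1, PAIP2 (-0.70, SE 0.31), was lower. Of all genes, 8.33% were higher and 6.66% lower at that level. In group C none of the 5 lists had a gene past the edgeR adjusted p against either diet. At an unadjusted p under 0.05 the lists held 6 higher and 7 lower of 92 genes tested against group R, beside 6.45% and 6.53% of all genes, and 6 higher and 9 lower of 95 against group B, beside 5.24% and 6.21%. DESeq2 called NARS1 higher and PDCD4 and RPS3 lower against group R, beside 2.61% of 3565 genes, and ATF5 lower against group B, beside 2.46% of 2156. It gave an adjusted p for 11, 8 and 39 genes in the lists of NARS1, PDCD4 and RPS3, and for 3 in that of ATF5. In these comparisons the medians lay between -0.03 and 0.19 against group R and between -0.22 and 0.14 against group B.

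Markers of hepatocytes (8 of 8 counted, none at 0) summed to 126895 to 185572 CPM in group R, 79432 to 179810 in group B and 109759 to 212049 in group C, the highest of the marker sums. Kupffer cell markers (7 of 8 counted, none at 0) summed to 603 to 1148 CPM in group R. Their sum was 602 to 869 CPM in group C and reached 1672 CPM in group B. The median was highest in group R, at 1023 CPM, beside 958 in group B and 657 in group C. All pigs of group B were above the median of group C, but the lowest of them was below the highest pig of group C. Endothelial markers (5 of 7) summed to 271 to 435, 351 to 452 and 326 to 401 CPM, and stellate cell markers (6 of 6) to 306 to 828.9, 307 to 774 and 301 to 717 CPM. Lymphocyte markers (7 of 7) summed to 96.7 to 211, 87.0 to 186 and 85.8 to 152 CPM, and cholangiocyte markers (3 of 4) to 1.29 to 19.3, 4.54 to 15.5 and 2.36 to 12.2 CPM, again in the order R, B and C and with none at 0. Their part in the differences of the translation factors was not tested, and in bulk RNA fewer cells of a type and less RNA per cell cannot be told apart.

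Reads with several alignments were counted on no gene, which matters for genes with processed copies, as many translation factors have. Such reads made up 15.4% to 38.1% of the reads tallied per pig, with means of 26.5%, 23.9% and 22.6% in groups R, B and C, and no pair of diets passed a two-sided exact permutation test (adjusted p = 0.667, 0.667 and 0.740). The share exceeded 30% in pig 4 of group R (32.5%), pig 3 of group B (33.2%) and pig 3 of group C (38.1%). Pig 3 of group B was the highest or lowest of its diet for 30 of the 39 factors and pig 3 of group C for 21, against 6 to 18 for the other pigs. Pig 4 of group R was so for 18, as were pig 5 of group R (22.7% of such reads) and pig 1 of group C (15.4%). With the 3 pigs above 30% left out, EIF4A1 passed in group B against group R (0.70, edgeR adjusted p = 0.0447). With the share as a covariate EIF3A passed in that pair (0.62, edgeR adjusted p = 0.0473). Of all genes, 214 of 6270 passed in the first of these fits and 193 of 6318 in the second.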

How the data were processed

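Liver of 16 pigs on 3 diets was measured by 3′ mRNA sequencing (QuantSeq), with 1 count file per pig. The deposited values are raw counts of reads per gene. To make them, the authors used FastQC and FLEXBAR for quality control and trimming, TopHat for alignment to the assembly Sscrofa11.1, and HTSeq-count with the annotation of Ensembl 96. The labels and the study's methods name different RNA kits. Symbols and positions came from RefSeq's table of the same assembly, matched by Ensembl identifier and symbol (14857 identifiers with a symbol). Among the kept factors, the matched RefSeq records of EIF2B4, EIF3B and EIF4B are labelled as long noncoding RNA.

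Each pair of diets was fitted alone without covariates in R 4.3.3 with edgeR 4.0.16 (TMM, filterByExpr with minimum count 10 and minimum total 15, quasi-likelihood test, Benjamini-Hochberg over all genes tested, threshold 0.05). A standard error is the log2 fold change divided by the square root of F, and 95% intervals are normal approximations from it. EEF1E1, EIF2B2 and EIF4ENIF1 fell below the filter in both comparisons with group R and between the sexes, and EIF2B2 also in the third pair. CPM values use TMM over all 16 pigs. The scripts were tested on simulated data. No libraries were identical among 120 pairs. With 705669 to 1767671 reads on genes, a factor at 10 CPM has about 10 reads.

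Members, gene lists and marker lists were chosen with earlier results of these data known. The factors chosen for description were those past the threshold, the 3 with the smallest p per pair of diets and 1 between the sexes. Also chosen were the highest and the smallest p of each complex, EIF2S2, EIF3A and EIF5B, and paralogues for their levels. Values of single pigs are given for some of these and for EIF3H, and the others have summaries or log2 fold changes only. Other factors at an unadjusted p under 0.05 were named after their values were seen. Alternatives were DESeq2 1.42.0, RLE normalization, no filter, a filter blind to diet, all 16 pigs in 1 fit, sex, diet or the share of reads with several alignments as covariates, the replicate number as a block, and each pig left out. Promoter sequences and motifs were not analysed here.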

Additional observations from a re-analysis of the deposited data

Results flagged for a closer look

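In 75 groups, the 25 named factors in each of the 3 diets, the highest or lowest pig was set against the nearest other pig of its diet, and 8 values stood apart by Dixon's critical value, which chance exceeds in about 1 in 20 groups. In group B, pig 3 was far above the others for EEF1B2 (1960 CPM, next 1193) and EIF4E2 (141 CPM, next 71.6). In group C, pig 3 was far above the others for EIF4B (226 CPM, next 169) and EEF1E1 (13.7 CPM, next 8.58), and pig 4 for EIF4G1 (239 CPM, next 163). In group R, pig 3 was far below the others for EIF3A (233 CPM, next 310), pig 5 was far below for EEF1E1 (1.94 CPM, next 7.34) and pig 4 was far above for EIF2B3 (23.4 CPM, next 12.6). Of the 8 values, 5 came from the 3 pigs in which more than 30% of the reads had several alignments, and whether that share plays a part was not tested.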

How the results depend on the processing

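With edgeR, 0 translation factors passed in any pair of diets under RLE normalization, no filter on low counts, the filter blind to diet, 1 fit of all 16 pigs or sex as a covariate. Between the sexes, 0 passed under RLE normalization, no filter on low counts or diet as a covariate. In group B against group R, DESeq2 called 3, the share of reads with several alignments as a covariate 1 (EIF3A), and leaving out the 3 pigs above 30% of such reads, an alternative chosen after seeing the data, 1 (EIF4A1). Over all genes, the share as a covariate called 193 of 6318 and leaving out the 3 pigs 214 of 6270. In group C against group R, DESeq2 called 2. Leaving out each pig gave 0 to 1 called in both comparisons with group R (EIF4A1 without pig 3 of group B, EIF5B without pig 3 of group C) and 0 in group C against group B and between the sexes. Over all genes, these comparisons with group R called 149 of 6436 without pig 3 of group B and 27 of 6566 without pig 3 of group C. Counts at an unadjusted p under 0.05 ran from 6 to 8, 4 to 10 and 2 to 7 in the 3 pairs when 1 pig was left out. The 10 was without pig 3 of group C and the 2 without pig 2 or 5 of group C. In group C against group B it was 3 without pig 1 or 3 of group B or pig 6 of group C. Shares of all genes at that unadjusted level are not given for these fits, so the counts are not a result about the factors. Over all genes, those past the edgeR adjusted p ran from 9 to 149, 3 to 27 and 4 to 9 in the same fits. The median over the factors ran from 0.04 to 0.24, 0.05 to 0.13 (without pig 1 of group C and pig 2 of group R) and -0.09 to -0.03 (without pig 2 of group B and pig 2 of group C) in the 3 pairs. In group C against group B that count was 0 without the 3 pigs. Over all genes, DESeq2 called 188, 93 and 53 where edgeR called 70, 9 and 4.

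The replicate number does not pair the pigs (correlations of same-numbered pigs from -0.24 to 0.14). With the replicate block, 0 factors passed, and 6, 5 and 3 had an unadjusted p under 0.05 in the 3 pairs. The share of all genes at that unadjusted level is not given for the block, and 35, 8 and 4 of all genes passed. SESN2 and NARS1 did not pass with the block (edgeR adjusted p = 0.08005 and 0.0826), and EIF5B was at -0.0449 in group C against group B.

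Directions turned only where log2 fold changes were small. In group B against group R, EIF2B3 (-0.10) was at 0.0496 with the share as a covariate, 0.11 without the 3 pigs and -0.20 to 0.20 with 1 pig left out; EIF3D (0.20) was at -0.14 without the 3 pigs and -0.0126 to 0.39 with 1 left out; EIF3F (-0.04) ran from -0.11 to 0.0945. In group C against group B, EIF5B (0.02) was at -0.0226 with the share as a covariate and -0.034 to 0.11 with 1 pig left out, EIF3A (-0.04) was at 0.0866 without the 3 pigs and -0.11 to 0.0268, EIF2S2 (-0.12) was at 0.0382 without the 3 pigs and -0.23 to 0.0001, and EIF4B (-0.12) ran from -0.24 to 0.0272. The cause of these changes was not tested. Of the counts of factors under all alternatives, 124 stayed equal or within 1.5 times and 14 did not. Counts of 0 that stayed 0 are among the 124. With 5 or 6 pigs a diet and 705669 to 1767671 reads per pig, small differences in factors below about 10 CPM could not be resolved.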
